A study of Mus musculus with 18 samples.

Results

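The ileum of Pgc1α fl/fl mice, which carry floxed Ppargc1a alleles and no Cre transgene, was compared between Western diet (WD, labelled HFD) and chow. The comparison rested on 12 of the 18 arrays of the study, 6 for each diet, and covered all 21542 genes that passed the detection filter. The other 6 arrays were labelled iPGC1a-/- on the WD. They entered the detection filter, the normalization, the choice of each gene's probe and the shared model for the spread between samples. Their levels are given here only as values. All mice were C57BL6/J, were 8 weeks old when the diets began, and were killed after 8 weeks of feeding, after fasting, at Zeitgeber time 3. The WD supplied 42% of its energy as fat, enriched in saturated milk fat, and held 0.2% cholesterol. The floxed mice are the Cre-negative control line of a Villin-Cre cross, in which Cre is driven in the epithelium of the gut. RNA came from cells shaken off the opened ileum in a chelating buffer, so each sample is a bulk mixture of crypt and villus cells with the leukocytes lying between them. Each array measured Cy3-labelled copies of that RNA with 60-base probes, and the labels give one array per numbered replicate without saying that each is a separate mouse, so p-values measure the spread between these samples.

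The ileum absorbs fat, cholesterol, vitamins and bile acids, and it is also a barrier that carries antimicrobial lectins, secretory antibody and many intraepithelial lymphocytes. Cholesterol in the cell is kept in bounds by SREBP2, which switches on the genes of cholesterol synthesis and uptake when sterol is scarce, and by LXR, which switches on sterol export when sterol is plentiful. Fatty acids act on Ppara, a nuclear receptor that drives fatty acid oxidation, and the gut clock and antimicrobial genes are known to follow feeding and the microbiota.

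A level below is the log2 normalized signal of a gene's brightest probe, and a difference is WD minus chow on that log2 scale, given ± its standard error. A gene was called when that probe passed an adjusted p of 0.05 (limma, Benjamini-Hochberg over 32726 probes) and changed by more than 1.5-fold. WD replicates 2 and 3, on different slides, agreed far more closely than other arrays. Their differences had a robust SD of 0.0822, against 0.150 to 0.663 for the 152 other pairs of arrays. They were therefore averaged and counted as 1 sample, which leaves n = 6 on chow and n = 5 on WD. WD values are given in the order replicate 1, replicates 2 and 3 averaged, replicate 4, replicate 5 and replicate 6, and chow values as the lowest to the highest with the median. Between 59.7% and 61.9% of spots stood well above background on chow and between 56.5% and 61.7% on WD, a difference of -1.81 percentage points (two-sided exact permutation test, p = 0.121, smallest possible 0.00216). Without WD replicate 4 that difference was -2.48 points (exact permutation p = 0.0333). Chow replicate 4 stood apart in many absorptive genes, and WD replicate 1 in smooth muscle genes. This is given beside some of those results, and all such values are listed near the end.

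The diet changed 1701 of the 21542 genes tested, which is 7.9% of them. On WD 648 genes were higher (3.01%) and 1053 were lower (4.89%). Leaving out chow replicate 4 gave 1529 calls, and leaving out WD replicates 2 and 3 gave 1567. The median difference over all genes was -0.00086, and the median standard error was 0.110. Of the called genes 223 rose and 449 fell more than 2-fold, and 25 rose and 37 fell more than 4-fold. The samples of the diets did not overlap for 2335 genes (10.8%), among them 1183 of the called genes. On all 3 slides, 1695 of the 1701 called genes (99.6%) differed between the diets in the direction of their call. These genes were called on the same arrays, and WD replicates 2 and 3 lay on different slides. The share is therefore no separate test of the calls. Of the 570 called genes with several probes 224 were called at all of them, and 37 had a probe that differed in the opposite direction.

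**Figure D1:**
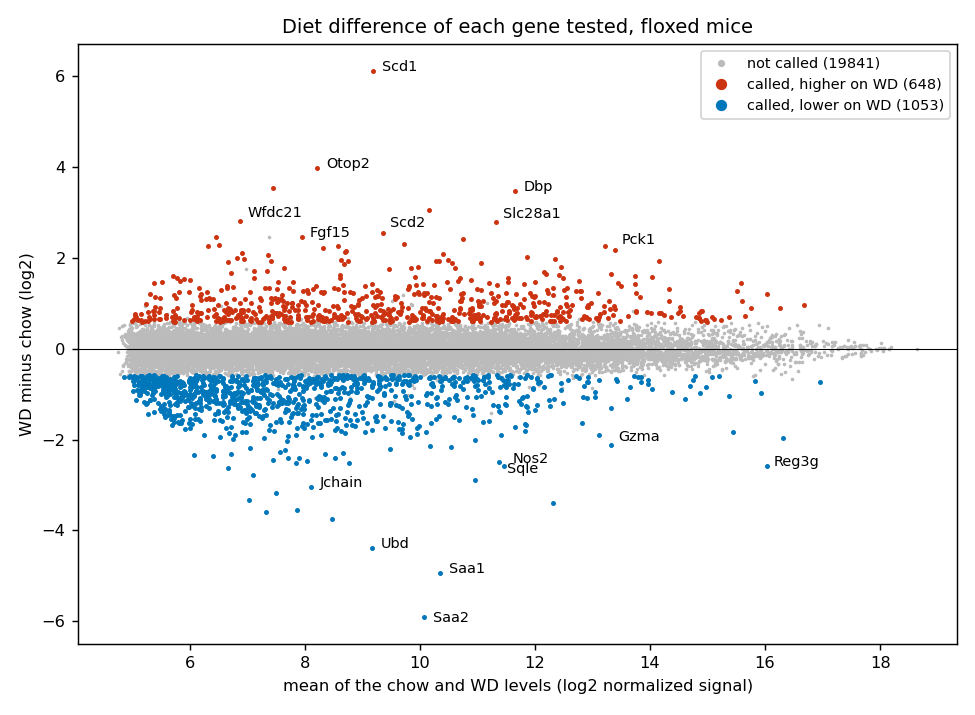
Difference between WD and chow (vertical axis, log2) against the mean of both diets' levels (horizontal axis, log2 normalized signal), 1 point for each of the 21542 genes tested. Red points are the 648 genes called higher on WD, blue points the 1053 called lower and grey points the rest; Scd1 lies farthest above 0 and Saa2 farthest below.

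Cell type markers show what the samples held. All 13 enterocyte markers and all 5 markers of ileal enterocytes were detected, and the summed level of the enterocyte markers (log2 of the sum of their signals) was 19.95 to 20.13 on chow and 19.91 to 20.10 on WD. Among the enterocyte markers only Alpi, the intestinal alkaline phosphatase of the brush border, was called. Alpi levels were 12.48 to 13.11 (median 13.06) on chow and 13.57, 14.03, 13.71, 14.00 and 13.80 on WD. Every WD sample lay above every chow sample, with chow replicate 4 the lowest, and Alpi was 1.82-fold higher on WD (0.86 ± 0.16, adjusted p = 0.000724). Of the 5 ileal markers 1 was higher and 2 were lower, all 3 described with the bile acid genes, with a median of -0.13. Markers of T cells and intraepithelial lymphocytes summed to 15.11 to 16.53 on chow and 14.62 to 15.05 on WD, with no overlap. Plasma cell markers summed to 11.15 to 11.82 on chow and 10.38 to 10.74 on WD, again with no overlap. B cell markers summed to 12.75 to 13.57 on chow and 12.58 to 12.90 on WD, which overlapped. Goblet cell markers summed to 18.84 to 19.23 on chow and 17.71 to 18.93 on WD, which overlapped. Markers of macrophages and dendritic cells summed to 15.73 to 16.42 on chow and 15.45 to 16.70 on WD, which overlapped as well. The sum is weighted to the brightest markers. The mean of the log2 levels of these 15 markers was 7.69 to 7.91 on chow and 7.40 to 7.58 on WD, without overlap. Of the 15, 12 had a negative difference, and 2 were not well above background on any WD array. The macrophage markers Adgre1 and C1qa, the fibroblast markers Col1a1 and Pdgfra, the endothelial markers Cdh5 and Kdr and the granulocyte markers S100a8 and S100a9 did not pass the detection filter. In these bulk samples, fewer cells of a type and less RNA per cell cannot be told apart.

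The largest increase was that of Scd1, the stearoyl-CoA desaturase that makes monounsaturated fatty acids. Scd1 levels were 5.55 to 7.04 (median 6.08) on chow and 12.36, 12.50, 11.74, 12.46 and 12.13 on WD. No chow sample came near the WD samples, and Scd1 was 68.6-fold higher on WD (6.10 ± 0.25, adjusted p = 2.64e-11). Its 2 probes differed in size, from 1.30 to 6.10. Otop2, a proton channel, had levels of 6.03 to 6.48 (median 6.18) on chow and 9.83, 9.82, 10.25, 10.91 and 10.15 on WD. The chow samples were tightly grouped, and Otop2 was 15.7-fold higher on WD (3.97 ± 0.17, adjusted p = 3.53e-11). Slc28a1, a sodium-driven nucleoside transporter, was 6.88-fold higher (2.78 ± 0.20), the bracket giving the log2 difference and its standard error here and below. Wfdc21, a secreted protein with a WAP domain, was 7.01-fold higher (2.81 ± 0.13). Slc5a4b, a member of the sodium-glucose transporter family, was 5.3-fold higher (2.41 ± 0.22). Tm4sf4, a membrane protein of the tetraspanin-like L6 family, was 4.79-fold higher (2.26 ± 0.25). Aqp7, a channel for water and glycerol, was 4.34-fold higher (2.12 ± 0.20) at 2 of 2 probes. Slc6a3, the dopamine transporter, was 5.47-fold higher (2.45 ± 0.22). Spsb4, an adaptor of a ubiquitin ligase, was 4.83-fold higher (2.27 ± 0.20) but was above background on 3 of the 6 chow arrays only. Transcripts with no assigned function were among the largest increases too. Of these, 1700016C15Rik was 8.23-fold higher (3.04 ± 0.21), 4930528H21Rik 11.5-fold higher (3.53 ± 0.28) and Gm32960 4.8-fold higher (2.26 ± 0.23). Hnf4aos, the antisense transcript at Hnf4a, was 4.6-fold higher (2.203 ± 0.25), Mycbpap was 4.23-fold higher (2.08 ± 0.20), and C87977 was 4.3-fold higher (2.10 ± 0.23).

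At the other end stood the serum amyloid genes, described below with the defence genes, and Ubd, a ubiquitin-like modifier induced by interferon gamma. Gml, which encodes a small lipid-anchored surface protein, was 10.08-fold lower (-3.33 ± 0.33). Ceacam10, a member of the carcinoembryonic antigen family, was 9.06-fold lower (-3.18 ± 0.21). B3galt5 levels were 6.90 to 10.59 (median 8.42) on chow and 5.95, 5.80, 5.73, 5.67 and 5.38 on WD. B3galt5, a galactosyltransferase of glycolipid and glycoprotein chains, was much lower in chow replicates 1, 2 and 3 than in chow replicates 4, 5 and 6, and all of these exceeded the WD samples. It was 6.91-fold lower on WD (-2.79 ± 0.52, adjusted p = 0.000828). Gcnt1, which starts branched O-glycans, was 4.97-fold lower (-2.31 ± 0.25). Ly6d, a lipid-anchored surface protein, was 5.71-fold lower (-2.51 ± 0.35). Pla2g5, a secreted phospholipase A2, was 5.53-fold lower (-2.47 ± 0.37). Mfi2, the iron-binding melanotransferrin, was 5.07-fold lower (-2.34 ± 0.30) and stood above background on 1 of the 6 WD arrays. Its difference ran from -4.19 to -1.55 over the alternatives. The transcript 2210407C18Rik was 4.46-fold lower (-2.16 ± 0.44).

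Most genes of cholesterol synthesis were lower on WD. Of its 23 genes tested, 16 were called lower on WD and 0 higher. Called or not, 15 of the 23 were lower without overlap between the diets. Over all genes tested, 5.53% were lower and 5.31% higher without overlap. The median difference of the list was -0.83, and 22 of 23 members had a negative one. The count was 16 under every alternative that kept the fold limit and with each array left out. Called members ran from the first steps to the sterol ring, from Hmgcs1, Mvk and Pmvk through Mvd, Idi1, Fdps, Fdft1 and Sqle to Lss, Cyp51, Msmo1, Nsdhl and Hsd17b7, with the sterol sensors Insig1 and Insig2. Not all late steps were called, and Sc5d, a sterol desaturase named here for its place in the pathway, was at 0.11.

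Sqle levels were 11.93 to 13.20 (median 12.65) on chow and 10.43, 9.85, 10.11, 10.06 and 10.20 on WD. The highest WD sample lay below the lowest chow sample, and Sqle, the squalene epoxidase, was 5.65-fold lower on WD (-2.50 ± 0.22, adjusted p = 5.81e-07). Fdft1 levels were 11.42 to 12.47 (median 12.03) on chow and 10.38, 9.61, 9.999, 9.86 and 9.90 on WD. Fdft1, the squalene synthase, was separated in the same way and was 4.05-fold lower on WD (-2.02 ± 0.19, adjusted p = 9.1e-07). Hmgcs1 levels were 13.07 to 14.03 (median 13.64) on chow and 12.41, 11.80, 11.95, 11.77 and 12.07 on WD. Chow replicate 6 was the lowest chow sample for these genes and WD replicate 1 the highest WD sample. Hmgcs1, which makes HMG-CoA, was 3.09-fold lower on WD (-1.63 ± 0.18, adjusted p = 5.95e-06). Fdps, the farnesyl diphosphate synthase, was 3.17-fold lower (-1.66 ± 0.14). Cyp51, which demethylates lanosterol, was 3.1-fold lower (-1.63 ± 0.16). Mvd, the last enzyme of the mevalonate steps, was 2.64-fold lower (-1.40 ± 0.15).

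The promoters of these genes are shown because their members moved together. A CCAAT box (CCAAT or its reverse complement ATTGG) is a site of the factor NF-Y, which acts beside SREBP at sterol genes. It occurred in 17 of the 18 members of the list that had a promoter window, from 250 bases before to 50 after the start in RefSeq (GRCm38.p6). The 12 called members with a window all held it. Of all 27025 genes with windows of the same length 41.1% held it. A gene was counted where any of its windows did. The CCAAT box was not particular to this list. Of lists described below, 6 of 7 MHC class II genes and 7 of 10 genes of the Dbp arm of the clock held it. In MHC class I processing 10 of 15 genes held it, and of the interferon-induced genes 9 of 25. The sterol regulatory element TCACNCCAC, searched on both strands, occurred in 1 of the 18, Hmgcs1, and in 1.44% of all genes with a window. The stretches below lie at chr13:119690101-119690301, plus strand, chr5:4104698-4104766, minus strand and chr8:122443423-122443522, minus strand, with both motifs in capitals.
Hmgcs1: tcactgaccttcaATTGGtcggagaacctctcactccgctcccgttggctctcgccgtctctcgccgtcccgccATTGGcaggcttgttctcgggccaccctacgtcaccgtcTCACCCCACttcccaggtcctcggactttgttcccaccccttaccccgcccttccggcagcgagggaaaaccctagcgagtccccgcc
Cyp51: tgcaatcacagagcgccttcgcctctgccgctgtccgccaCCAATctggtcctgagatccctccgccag
Mvd: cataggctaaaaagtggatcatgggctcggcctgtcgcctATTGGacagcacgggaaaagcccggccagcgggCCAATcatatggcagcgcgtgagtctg
Sqle and Fdft1 are named without a stretch.

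Export of sterol moved the other way. Abca1, the LXR-driven transporter that loads HDL with cholesterol, had levels of 7.52 to 9.32 (median 9.22) on chow and 10.65, 11.14, 10.71, 10.88 and 10.24 on WD. Chow replicate 4 lay far below the other chow samples, which were all close to the median, and every WD sample lay above them. Abca1 was 3.41-fold higher on WD (1.77 ± 0.26, adjusted p = 8.28e-05). Abcg8, a subunit of the transporter that returns sterol to the lumen, was 1.88-fold higher (0.91 ± 0.14). Its partner Abcg5 was 1.54-fold higher (0.62 ± 0.14). Without chow replicate 4 the difference of Abcg5 was below 1.5-fold (0.50, adjusted p = 0.00476). The list of cholesterol absorption and transport had 3 of 15 members higher and 2 lower.

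Genes of fatty acid synthesis moved in both directions. Of its 19 genes 4 were higher and 2 lower. Scd2, a second desaturase, had levels of 6.76 to 9.10 (median 8.36) on chow and 10.67, 10.59, 10.73, 10.40 and 10.78 on WD. The chow samples spread widely, the WD samples hardly at all, and Scd2 was 5.86-fold higher on WD (2.55 ± 0.32, adjusted p = 2.48e-05). Srebf1 levels were 11.35 to 11.90 (median 11.84) on chow and 13.38, 13.15, 13.33, 13.28 and 13.20 on WD. Srebf1, which encodes SREBP1 and is itself an LXR target, separated the diets and was 2.95-fold higher on WD (1.56 ± 0.13, adjusted p = 3.87e-07). Me1, the malic enzyme that supplies NADPH, was 3.85-fold higher (1.95 ± 0.26). Fasn, the fatty acid synthase, had levels of 12.21 to 12.93 (median 12.42) on chow and 12.29, 11.56, 12.15, 11.75 and 11.86 on WD, which overlapped. It was 1.51-fold lower on WD (-0.60 ± 0.15, adjusted p = 0.00825), close to the 1.5-fold limit. The difference fell inside that limit without chow replicate 1 (-0.54), chow replicate 4 (-0.51), WD replicate 3 (-0.57), WD replicate 5 (-0.56) or WD replicate 6 (-0.57). Acacb, an acetyl-CoA carboxylase, was 1.91-fold lower (-0.94 ± 0.26) at 1 of its 3 probes, while another of them was at 0.23.

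**Figure D2:**
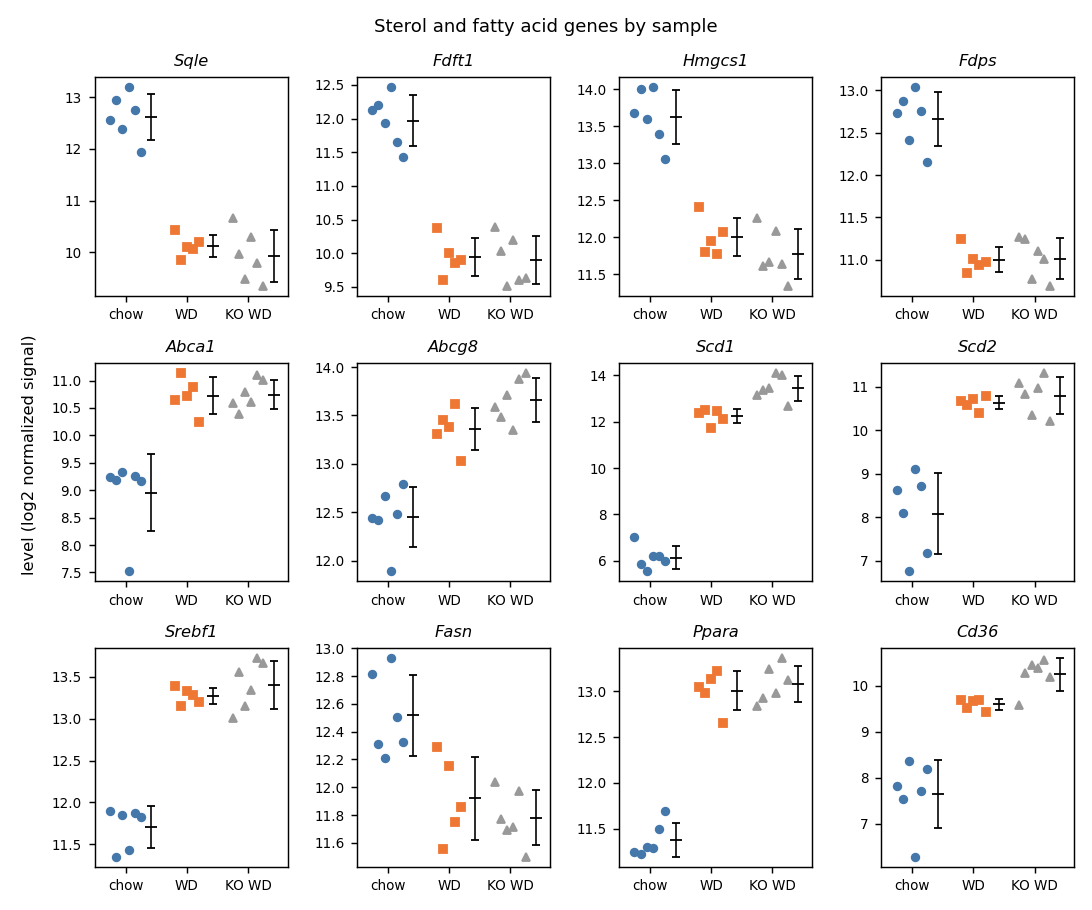
Levels (vertical axis, log2 normalized signal) of 12 sterol and fatty acid genes by sample, with 6 chow samples (circles), 5 WD samples (squares) and 6 arrays labelled iPGC1a-/- on WD (triangles, KO WD), and the mean ± SD of each group. Sqle, Fdft1, Hmgcs1 and Fdps are lower on WD and Abca1, Abcg8, Scd1, Scd2, Srebf1, Ppara and Cd36 are higher, each without overlap between chow and WD, while the Fasn samples overlap.

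Some genes that take up and burn fatty acids rose. Cd36, a fatty acid translocase and Ppara target, had levels of 6.28 to 8.37 (median 7.76) on chow and 9.69, 9.51, 9.68, 9.69 and 9.44 on WD. WD samples lay within a narrow band above all chow samples, and Cd36 was 3.87-fold higher on WD (1.95 ± 0.26, adjusted p = 3.93e-05). Ppara levels were 11.23 to 11.69 (median 11.30) on chow and 13.04, 12.98, 13.13, 13.23 and 12.66 on WD. Ppara itself was 3.1-fold higher on WD (1.63 ± 0.12, adjusted p = 5.53e-08). Pdk4, which keeps pyruvate out of mitochondrial oxidation, was 4.96-fold higher (2.31 ± 0.30). Cyp4a10, an omega-hydroxylase of fatty acids, was 3.26-fold higher (1.71 ± 0.38), with overlap between the diets. Fabp1, the liver-type fatty acid binding protein, was 1.87-fold higher (0.90 ± 0.24), with chow replicate 4 far below the rest. Slc27a2, a very long chain acyl-CoA synthetase, was 1.74-fold higher (0.80 ± 0.16). Of 12 genes of fatty acid uptake and activation, Cd36, Fabp1 and Slc27a2 were the 3 that rose, and 2 fell. The count that fell was 1 without chow replicate 3, 4 or 6, without WD replicate 6 or without WD replicates 2 and 3, and 0 under normexp background correction. The list of Ppara targets and ketogenesis had 4 of 15 members higher and 0 lower.

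In peroxisomes 4 of 17 genes of fatty acid oxidation were higher and 0 lower, with a list median of 0.45. Acox2, the oxidase for branched chains and bile acid precursors, had levels of 8.75 to 10.12 (median 9.35) on chow and 11.56, 11.14, 11.34, 11.42 and 10.99 on WD. It was 3.8-fold higher on WD (1.92 ± 0.19, adjusted p = 1.73e-06) at 2 of 2 probes and without overlap. Hsd17b4, the bifunctional enzyme, was 1.93-fold higher (0.95 ± 0.11). Acaa1b, a thiolase, was 1.76-fold higher (0.82 ± 0.12). Crat, which passes acyl groups to carnitine, was 2.19-fold higher (1.13 ± 0.16). Cat, the catalase that clears peroxisomal hydrogen peroxide, was 1.9-fold higher (0.93 ± 0.15). In mitochondria the corresponding list of 19 genes had 0 calls, a median of 0.16 and 6 members higher without overlap, against 5.31% of all genes. Among its members Acads was at 0.43 ± 0.10 and Hadh at 0.41 ± 0.077, both short of 1.5-fold. Complex I (36 genes), complexes II to V (38 genes) and the citric acid cycle (22 genes) had 0 calls. The list of mitochondrial biogenesis around Ppargc1a (14 genes) had 0 calls too. Without overlap, 3 genes of that list and 3 of complex I were higher and 0 lower. In the citric acid cycle 1 was higher and 1 lower without overlap, and in complexes II to V 0. Positive differences were 7 of 14 around Ppargc1a, 25 of 36 in complex I and 33 of 38 in complexes II to V. Ppargc1a was at 0.43 ± 0.17 (adjusted p = 0.1) and was not called.

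Of 27 genes of triglyceride assembly and chylomicrons 3 were higher. Apoa4, an apolipoprotein of chylomicrons, had levels of 15.13 to 16.65 (median 16.35) on chow and 17.13, 17.27, 17.02, 17.17 and 17.23 on WD. Chow replicate 4 was more than 1 unit below the others, and Apoa4 was 1.95-fold higher on WD (0.96 ± 0.20, adjusted p = 0.00185). Apoc2, the cofactor of lipoprotein lipase, was 2.31-fold higher (1.21 ± 0.21). Plin2, which coats lipid droplets, was 1.56-fold higher (0.64 ± 0.17). Plin2 was inside the 1.5-fold limit without chow replicate 5 (0.56, adjusted p = 0.0333) or WD replicate 5 (0.54, adjusted p = 0.0495).

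Bile acid genes moved in both directions, 3 of 11 higher and 3 lower. Fgf15, the ileal hormone that FXR induces and that holds back bile acid synthesis in the liver, had levels of 5.60 to 7.68 (median 6.84) on chow and 9.99, 9.27, 9.90, 7.37 and 9.37 on WD. WD replicate 5 lay within the chow range and the other WD samples above it. Fgf15 was 5.49-fold higher on WD (2.46 ± 0.48, adjusted p = 0.00124). Nr0b2, another FXR target, was not well above background on any chow array and on 5 of 6 WD arrays. It was at least 1.49-fold higher on WD (adjusted p = 0.0028). Without WD replicate 1 its measured difference was inside the limit (0.58, adjusted p = 0.0101). Abcc2, an exporter of conjugates, was 2.13-fold higher (1.09 ± 0.16). Slc51b levels were 13.24 to 14.05 (median 13.36) on chow and 12.51, 12.72, 12.38, 12.65 and 12.52 on WD. Slc51b, a subunit of the basolateral bile acid exporter, separated the diets and was 1.95-fold lower on WD (-0.96 ± 0.14, adjusted p = 7.94e-05). Nr1h4, which encodes FXR, was 1.7-fold lower (-0.77 ± 0.15). Slc10a2, the apical bile acid transporter of the ileum, was 2.29-fold lower (-1.19 ± 0.34), with overlapping samples. Without WD replicate 4 Slc10a2 did not pass the test (-0.90, adjusted p = 0.0579).

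Among families of 20 or more genes sharing the start of their name, Cyp, the oxidases of lipids and foreign compounds, had the largest share of increases. Of 63 genes whose names begin with Cyp, 25 were higher (39.7%) and 6 lower (9.52%), against 3.01% and 4.89% of all genes. In the families 2 to 4 of cytochrome P450, 14 of 31 members were higher and 4 lower, with a median of 0.57. Cyp2j6 levels were 8.68 to 9.57 (median 9.54) on chow and 11.26, 11.19, 11.48, 11.39 and 10.93 on WD. Cyp2j6, of a family that epoxidises arachidonic acid, separated the diets and was 3.81-fold higher on WD (1.93 ± 0.17, adjusted p = 6.58e-07). Cyp2j13 of that family was 3.78-fold higher (1.92 ± 0.15). Cyp2d10 was 3.1-fold higher (1.63 ± 0.20) and Cyp2d26 2.72-fold higher (1.44 ± 0.20), both with chow replicate 4 lowest. These Cyp2d genes are close paralogs that one probe may not tell apart. Cyp4f16, of a family that hydroxylates fatty acids and leukotrienes, was 2.85-fold higher (1.51 ± 0.16).

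The 4 members of families 2 to 4 that fell were Cyp3a genes, near-identical copies whose probes can pick up each other. Cyp3a11 levels were 10.68 to 12.97 (median 12.02) on chow and 10.30, 11.32, 11.15, 11.49 and 9.37 on WD. The diets overlapped, chow replicates 3 and 6 were highest, and Cyp3a11 was 2.4-fold lower on WD (-1.26 ± 0.42, adjusted p = 0.0425). Cyp3a16 was 2.36-fold lower (-1.24 ± 0.39) and Cyp3a41a 2.16-fold lower (-1.11 ± 0.35). Cyp3a11 was no longer called without chow replicates 2, 3, 5 or 6 or WD replicates 1 or 6, where its difference was -1.26 to -0.92. Cyp3a16 was lost without chow replicates 3, 5 or 6 or WD replicates 1 or 6 (-1.21 to -0.89). Cyp3a41a was lost without the same 6 arrays as Cyp3a11 (-1.09 to -0.81). The count of 4 fell to 1 without chow replicate 3, 5 or 6 or WD replicate 1 or 6, and to 2 without chow replicate 2. Cyp3a44 had levels of 5.91 to 7.68 (median 6.74) on chow and 4.88, 5.32, 4.82, 5.25 and 4.90 on WD. It was 3.39-fold lower on WD (-1.76 ± 0.24, adjusted p = 3.96e-05) and did not overlap, though only 3 of 6 WD arrays were above background.

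Conjugating enzymes and carboxylesterases were higher in 8 of 24 cases and lower in 0, with a median of 0.35. Ces2c had levels of 13.57 to 14.19 (median 13.79) on chow and 14.56, 14.89, 14.86, 15.05 and 14.92 on WD. Ces2c, a carboxylesterase that hydrolyses esters and glycerides, did not overlap and was 2.07-fold higher on WD (1.05 ± 0.11, adjusted p = 4.02e-06). Ces2b of the same family was 2.08-fold higher (1.06 ± 0.11). Ugt2a3, a glucuronosyltransferase, was 2.16-fold higher (1.11 ± 0.24). Of 28 genes of glutathione and NRF2 4 were higher, a count that was 7 without WD replicate 6. Gclc, the catalytic subunit of the enzyme that starts glutathione synthesis, was 1.84-fold higher (0.88 ± 0.16), and its partner Gclm was 1.67-fold higher (0.74 ± 0.11). Gpx4, which removes lipid peroxides, was 1.72-fold higher (0.78 ± 0.10).

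Vitamin A genes rose in 5 of 14 cases and fell in 1. Aldh1a1 levels were 13.07 to 13.50 (median 13.22) on chow and 14.64, 14.75, 15.09, 15.07 and 14.50 on WD. The chow samples lay close together and well below WD, and Aldh1a1, which makes retinoic acid, was 2.97-fold higher on WD (1.57 ± 0.11, adjusted p = 3.35e-08). Rdh7, a retinol dehydrogenase, was 3.22-fold higher (1.69 ± 0.23). Rbp2, the retinol carrier of enterocytes, was 2.33-fold higher (1.22 ± 0.22). Bco1, which cleaves beta-carotene, fell and was 1.73-fold lower (-0.79 ± 0.14).

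Digestion and transport of sugars and amino acids rose in part. Of 15 genes of sugar digestion, fructose uptake and gluconeogenesis 4 were higher and 0 lower, with a median of 0.31. Pck1 levels were 10.56 to 13.54 (median 12.35) on chow and 14.15, 14.73, 14.21, 14.27 and 15.00 on WD. Chow ranged widely, with replicate 4 lowest and replicate 5 highest, and all WD samples were above it. Pck1, the first committed enzyme of gluconeogenesis, was 4.52-fold higher on WD (2.18 ± 0.35, adjusted p = 0.000205). Lct, the lactase of the brush border, was 2.06-fold higher (1.05 ± 0.27). Chow replicate 4 was at 13.4 for Lct, with the nearest chow level at 15.1. The lowest difference of Lct with an array left out was 0.71. Treh, the trehalase, was 2.21-fold higher (1.14 ± 0.14). Slc2a5, the fructose transporter GLUT5, was 1.64-fold higher (0.72 ± 0.14). Without chow replicate 4 Slc2a5 fell inside the 1.5-fold limit (0.57, adjusted p = 0.000483). Of 24 peptidases and amino acid transporters 5 were higher, a count that was 8 without chow replicate 2 or chow replicate 3. Ace, a peptidase of the brush border best known for angiotensin, had levels of 11.43 to 12.46 (median 12.02) on chow and 13.25, 13.86, 13.53, 13.21 and 13.67 on WD. It was 2.81-fold higher on WD (1.49 ± 0.25, adjusted p = 0.000316), without overlap. Slc6a20a, which carries proline, was 2.45-fold higher (1.29 ± 0.16). Slc7a8, which carries neutral amino acids across the basolateral membrane, was 1.93-fold higher (0.95 ± 0.14). Arg2, the mitochondrial arginase, was 2.33-fold higher (1.22 ± 0.16), and Prodh, which degrades proline, was 2.33-fold lower (-1.22 ± 0.14). Slc23a1, the vitamin C transporter, was 3.47-fold higher (1.80 ± 0.29), with chow replicate 4 at 7.29 and the nearest chow level at 9.05.

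Single genes of sugar breakdown, hypoxia and iron differed while most members of these lists were not called. Of 15 genes of glycolysis 2 were lower and 0 higher, with a median of 0.03 and 9 positive differences, and the count was 1 without chow replicate 5. Hk2, a hexokinase, was 3.11-fold lower (-1.64 ± 0.23). Pfkfb3 levels were 8.94 to 11.06 (median 9.62) on chow and 7.58, 7.54, 7.59, 6.84 and 8.07 on WD. Pfkfb3, which makes the activator of phosphofructokinase, did not overlap and was 4.9-fold lower on WD (-2.29 ± 0.30, adjusted p = 3.22e-05). The hypoxia list, which holds Pfkfb3, had 3 of 14 members higher and 2 lower, with a median of -0.054 and 9 negative differences. The count lower was 1 without chow replicate 2 or WD replicate 1. Egln3, the prolyl hydroxylase PHD3, was 3-fold higher (1.58 ± 0.24), and Bnip3, a mitophagy receptor, was 2.75-fold higher (1.46 ± 0.13). Of 12 genes of iron uptake and storage 2 were higher and 1 lower, with a median of 0.21 and 8 positive differences. The one that fell was Slc40a1, the iron exporter ferroportin, which was 2.18-fold lower (-1.13 ± 0.23). Slc9a3, the apical sodium-proton exchanger, was 1.93-fold lower (-0.95 ± 0.23).

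The circadian clock differed at the single hour sampled. Dbp, Tef and Hlf encode factors that bind D-boxes, and with the Per genes and Nr1d2 they are switched on by CLOCK and ARNTL and are high as Arntl is low. Of 13 genes of that arm 10 were called higher and 0 lower, with a median of 1.11. Without overlap, 8 of the 13 were higher. Dbp levels were 8.46 to 11.69 (median 9.85) on chow and 13.00, 13.68, 13.61, 13.18 and 13.45 on WD. Chow replicate 5 was the highest chow sample and chow replicate 4 the lowest, and both were below all WD samples. Dbp was 11-fold higher on WD (3.46 ± 0.35, adjusted p = 2.71e-06). Tef levels were 10.84 to 12.44 (median 11.60) on chow and 13.14, 13.28, 13.24, 13.14 and 13.32 on WD. Here too chow replicates 5 and 4 were at the ends of the chow range, and Tef was 3.08-fold higher on WD (1.62 ± 0.18, adjusted p = 6.63e-06) at 4 of 4 probes. Per3 levels were 6.84 to 8.45 (median 7.60) on chow and 9.72, 10.15, 9.57, 9.47 and 10.02 on WD. Per3 was 4.42-fold higher on WD (2.14 ± 0.21, adjusted p = 1.65e-06) at 3 of 3 probes. Per2 was 2.49-fold higher (1.32 ± 0.19), Nr1d2 2.37-fold higher (1.24 ± 0.17), Hlf 2.39-fold higher (1.25 ± 0.19) and Per1 2.16-fold higher (1.11 ± 0.21), the last with overlap.

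The Arntl arm had 3 of 7 members lower and 1 higher, with a median of -0.54. Arntl levels were 7.40 to 8.41 (median 8.11) on chow and 6.75, 6.67, 6.71, 7.34 and 6.42 on WD. Chow replicate 5 was the lowest chow sample and just above the highest WD sample, replicate 5. Arntl was 2.45-fold lower on WD (-1.29 ± 0.18, adjusted p = 5.68e-05) at 3 of 3 probes. Nfil3, a repressor at D-boxes, was 2.27-fold lower (-1.19 ± 0.23), and Rora, an activator of Arntl, was 2.06-fold lower (-1.05 ± 0.19), both with overlap.

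The E-box CACGTG is the site of CLOCK and ARNTL. It occurred in 3 of the 10 genes of the Dbp arm with a promoter window and in 8.09% of all genes with a window. It also occurred in 5 of 18 genes of cholesterol synthesis and 2 of 15 of MHC class I processing. None of the interferon-induced or MHC class II genes with a window held it. The D-box TTATGTAA, on either strand, occurred in 1 of 10, that of Per3, and in 1.11% of all. The Per3 stretch (chr4:151044776-151044910, minus strand) shows 2 D-boxes and the Tef stretch (chr15:81802506-81802591, plus strand) 1 E-box, in capitals (GRCm38.p6).
Per3: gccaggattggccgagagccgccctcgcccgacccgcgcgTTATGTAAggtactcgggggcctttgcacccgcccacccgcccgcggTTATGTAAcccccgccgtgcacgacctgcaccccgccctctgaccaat
Tef: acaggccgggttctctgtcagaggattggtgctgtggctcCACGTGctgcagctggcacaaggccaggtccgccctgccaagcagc

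**Figure D3:**
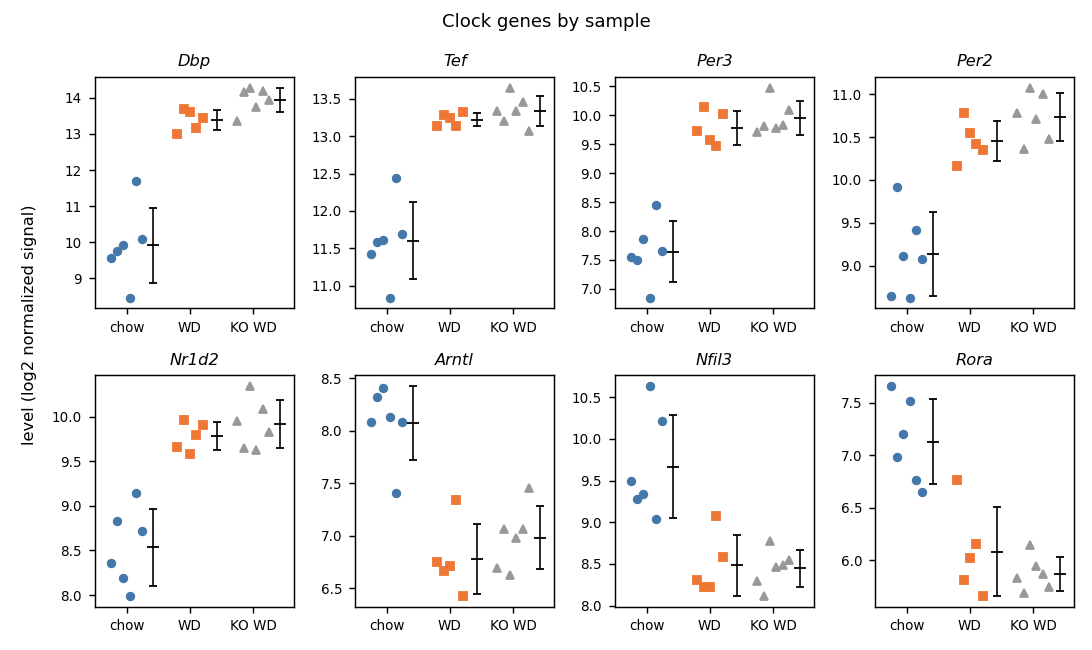
Levels (vertical axis, log2 normalized signal) of 8 clock genes by sample, with 6 chow samples (circles), 5 WD samples (squares) and 6 arrays labelled iPGC1a-/- on WD (triangles, KO WD), and the mean ± SD of each group. Dbp, Tef, Per3, Per2 and Nr1d2 are higher on WD and Arntl is lower, each without overlap between chow and WD; Nfil3 and Rora are lower with overlap.

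Many genes of antimicrobial defence were lower on WD. Serum amyloid A proteins are secreted by the epithelium in response to adherent bacteria, and all 3 of them fell. Saa2 levels were 11.80 to 13.90 (median 13.11) on chow and 8.30, 7.04, 6.51, 7.003 and 6.77 on WD. WD replicate 1 was the highest WD sample and still more than 3 units under the lowest chow sample. Saa2 was 59.4-fold lower on WD (-5.89 ± 0.44, adjusted p = 7.93e-08). Saa1 was 30.5-fold lower (-4.93 ± 0.34). Saa3 was 3.33-fold lower (-1.74 ± 0.35), measured above background on 2 of 6 WD arrays and with chow replicate 3 far above the other chow samples. The difference of Saa3 ran from -3.03 to -1.16 over the alternatives. Of 20 genes known to be induced in the gut lining by microbes 10 were lower and 2 higher, with a median of -0.95 and 8 lower without overlap. The count higher was 1 without chow replicate 4 or 5, without WD replicate 1 or 6, or without WD replicates 2 and 3.

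Reg3g levels were 16.81 to 17.68 (median 17.41) on chow and 15.25, 15.32, 14.06, 15.35 and 13.67 on WD. WD replicates 4 and 6 were the lowest, and none reached the chow range. Reg3g, a bactericidal lectin, was 6.02-fold lower on WD (-2.59 ± 0.36, adjusted p = 5.88e-05). Its relative Reg3b was 3.89-fold lower (-1.96 ± 0.32). Reg3a, of the same family, was 2.44-fold higher (1.29 ± 0.26), with overlap. Dmbt1 levels were 16.03 to 16.79 (median 16.36) on chow and 14.85, 14.12, 14.45, 14.90 and 14.26 on WD. Dmbt1, a mucin-like protein that binds bacteria, was 3.59-fold lower on WD (-1.84 ± 0.20, adjusted p = 3.84e-06), without overlap. Nos2 levels were 11.48 to 13.54 (median 12.93) on chow and 10.42, 10.91, 9.63, 10.44 and 9.38 on WD. Nos2, the inducible nitric oxide synthase, did not overlap either and was 6.03-fold lower on WD (-2.59 ± 0.38, adjusted p = 9.76e-05). Nfkbiz, an atypical inhibitor of NF-kB that is needed for several of these genes, was 2.7-fold lower (-1.43 ± 0.20). Ccl28, which draws IgA-secreting cells to mucosa, was 2.99-fold lower (-1.58 ± 0.13). Goblet cell markers, which moved with these genes, fell in 6 of 11 cases as given below, and their part in the result was not tested.

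Transcripts of lymphocytes were lower. Of 23 markers of T cells and intraepithelial lymphocytes 19 were called lower and 0 higher, with a median of -1.52. Without overlap, 17 of the 23 were lower. Of the 23, 1 was not well above background on any WD array. Cd8a levels were 7.65 to 9.35 (median 8.94) on chow and 7.26, 6.86, 6.86, 7.35 and 6.60 on WD. Chow replicate 6 was the lowest chow sample and lay above all WD samples. Cd8a was 3.35-fold lower on WD (-1.74 ± 0.23, adjusted p = 3.22e-05), and Cd8b1, the other chain of CD8, was 3.14-fold lower (-1.65 ± 0.26). Gzma levels were 13.27 to 15.23 (median 14.46) on chow and 12.59, 11.91, 12.29, 12.76 and 11.80 on WD. The same chow sample was lowest for Gzma, a protease of killer lymphocytes, which was 4.32-fold lower on WD (-2.11 ± 0.27, adjusted p = 2.61e-05). Gzmb was 3.37-fold lower (-1.75 ± 0.29). Cd6 was 5.76-fold lower (-2.53 ± 0.31) and Cd5 4.55-fold lower (-2.18 ± 0.35), both receptors on T cells. Ccl5, a chemokine made by intraepithelial lymphocytes, was 3.72-fold lower (-1.90 ± 0.28). Ccr9, which brings T cells to the small intestine, was 2.53-fold lower (-1.34 ± 0.16). Il7r, the receptor for IL-7, was 2.88-fold lower (-1.53 ± 0.23), and Cd52, a surface antigen of lymphocytes, was 3.55-fold lower (-1.83 ± 0.31). Among all 80 genes tested whose names begin with Cd, 25 were lower (31.2%) and 1 higher (1.25%). Over all genes 4.89% were lower and 3.01% higher. Il15, the cytokine that sustains intraepithelial lymphocytes, was 1.99-fold higher (0.99 ± 0.16) at 3 of 3 probes.

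B and plasma cell transcripts fell too. Of 7 plasma cell markers 6 were called lower, and 5 of the 7 were lower without overlap. Jchain levels were 8.67 to 10.15 (median 9.88) on chow and 6.78, 5.40, 6.34, 8.04 and 6.35 on WD. WD replicate 5 was the highest WD sample, and no WD sample reached the chow range. Jchain, which joins IgA into polymers, was 8.21-fold lower on WD (-3.04 ± 0.39, adjusted p = 2.59e-05). Mzb1, a chaperone of antibody secretion, was 3.09-fold lower (-1.63 ± 0.26), above background on 2 of 6 WD arrays, with -3.13 to -1.03 over the alternatives. Of the 5 immunoglobulin segments tested 4 were lower. B cell markers were lower in 9 of 15 cases, none without overlap. Cd79b levels were 8.04 to 10.83 (median 9.58) on chow and 7.39, 5.51, 6.22, 9.02 and 7.78 on WD. Chow replicate 1 and WD replicate 5 were the highest of their groups, and WD replicate 5 exceeded the lowest chow sample. Cd79b, a part of the B cell receptor, was 5-fold lower on WD (-2.32 ± 0.51, adjusted p = 0.00332). Ms4a1, which encodes CD20, was 3.61-fold lower (-1.85 ± 0.45), and Pou2af1, a B cell coactivator, was 2.92-fold lower (-1.55 ± 0.32). Ccr6, a receptor on B cells, was 3.58-fold lower (-1.84 ± 0.44), and its ligand Ccl20 was 2.44-fold lower (-1.29 ± 0.25). Ms4a1 and Ccr6 were above background on 3 of 6 WD arrays. The B cell count was 5 with WD replicates 2, 3 and 6 left out and 3 under a stricter detection filter.

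Interferon-induced genes were lower in 24 of 36 cases and higher in 0. All 36 had a negative difference, with a median of -0.98, and 8 members did not overlap. The count was 16 without WD replicates 2 and 3, and 19 to 27 with single arrays left out. Ubd levels were 9.02 to 13.09 (median 11.78) on chow and 6.99, 6.68, 6.45, 7.95 and 6.83 on WD. Chow replicates 6 and 3 were the lowest chow samples, and Ubd was 20.8-fold lower on WD (-4.38 ± 0.57, adjusted p = 3.11e-05). Zbp1 levels were 8.10 to 10.48 (median 10.15) on chow and 7.24, 7.07, 6.54, 7.63 and 8.13 on WD. Chow replicate 6 was lowest for Zbp1, a sensor of nucleic acids, and lay slightly below WD replicate 6. Zbp1 was 5.32-fold lower on WD (-2.41 ± 0.36, adjusted p = 0.000114). Igtp levels were 9.33 to 11.86 (median 10.93) on chow and 9.30, 7.74, 7.93, 9.94 and 9.31 on WD. Igtp and Irgm2 are immunity-related GTPases. Igtp overlapped through chow replicate 3, which lay below WD replicate 5, and was 3.86-fold lower on WD (-1.95 ± 0.44, adjusted p = 0.00432), and Irgm2 was 3.6-fold lower (-1.85 ± 0.36). Gbp2, a guanylate-binding protein, did not overlap and was 3.28-fold lower (-1.71 ± 0.22).

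Promoter stretches of Gbp2 (chr3:142620564-142620653, plus strand) and Igtp (chr11:58199482-58199555, plus strand) are shown with a pair of TTTC half-sites set 2 bases apart, or of GAAA on the other strand, in capitals with the bases between them (GRCm38.p6). This core of the interferon-stimulated response element occurred in 15 of 25 genes of the interferon list with a window. It occurred in 12 of 17 of the called members of that list and in 3.99% of all genes with a window. The core also occurred in 5 of 15 genes of MHC class I processing, though in 0 of the 4 called. In MHC class II 1 of 7 genes held it, in cholesterol synthesis 1 of 18 and in the Dbp arm of the clock 0 of 10.
Gbp2: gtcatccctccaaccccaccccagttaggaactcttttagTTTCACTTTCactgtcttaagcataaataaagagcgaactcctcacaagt
Igtp: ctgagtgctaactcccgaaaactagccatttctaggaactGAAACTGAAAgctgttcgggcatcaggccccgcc

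Genes of antigen presentation were lower too. Of 10 MHC class II genes 9 were lower, none without overlap, with a median of -0.98. The count was 6 without chow replicate 4 and 4 with WD replicates 2, 3 and 6 left out. H2-Aa levels were 11.64 to 13.19 (median 12.75) on chow and 10.20, 10.81, 10.56, 12.19 and 11.28 on WD. WD replicate 5 was above the lowest chow sample, replicate 6. H2-Aa, an alpha chain of class II, was 3.22-fold lower on WD (-1.69 ± 0.32, adjusted p = 0.000982). H2-Ab1 was 2.07-fold lower (-1.05 ± 0.24) at 4 of 4 probes, and Cd74, the invariant chain, was 1.98-fold lower (-0.98 ± 0.23). Ciita, the master switch of class II genes, was 2.15-fold lower (-1.10 ± 0.32). Without chow replicate 4 Ciita did not pass the test (-0.93, adjusted p = 0.0553). In MHC class I processing 5 of 19 genes were lower. Nlrc5, the switch of class I genes, was 5.3-fold lower (-2.41 ± 0.34) at its brightest probe, while its other probe was at -0.34. Tap1, the peptide transporter, was 2.25-fold lower (-1.17 ± 0.24), and the immunoproteasome subunits Psmb8 and Psmb9 were 2.14-fold lower (-1.10 ± 0.22) and 2.07-fold lower (-1.05 ± 0.25). All of these but Nlrc5 overlapped between the diets.

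Chemokines and their receptors were called lower in 13 of 21 cases, and 5 of the 21 were lower without overlap. Il18bp, which binds and blocks IL-18, was 2.31-fold lower (-1.20 ± 0.13) at 2 of 2 probes. Cd14, a coreceptor for lipopolysaccharide, was 2.49-fold lower (-1.32 ± 0.16). Markers of T cells (19 of 23 lower), B cells (9 of 15) and plasma cells (6 of 7) moved with the interferon, antigen presentation and chemokine genes, and macrophage and dendritic cell markers did so in 3 of 15 cases. Their part in these results was not tested. The macrophage and dendritic count was 1 with WD replicates 2, 3 and 6 left out.

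**Figure D4:**
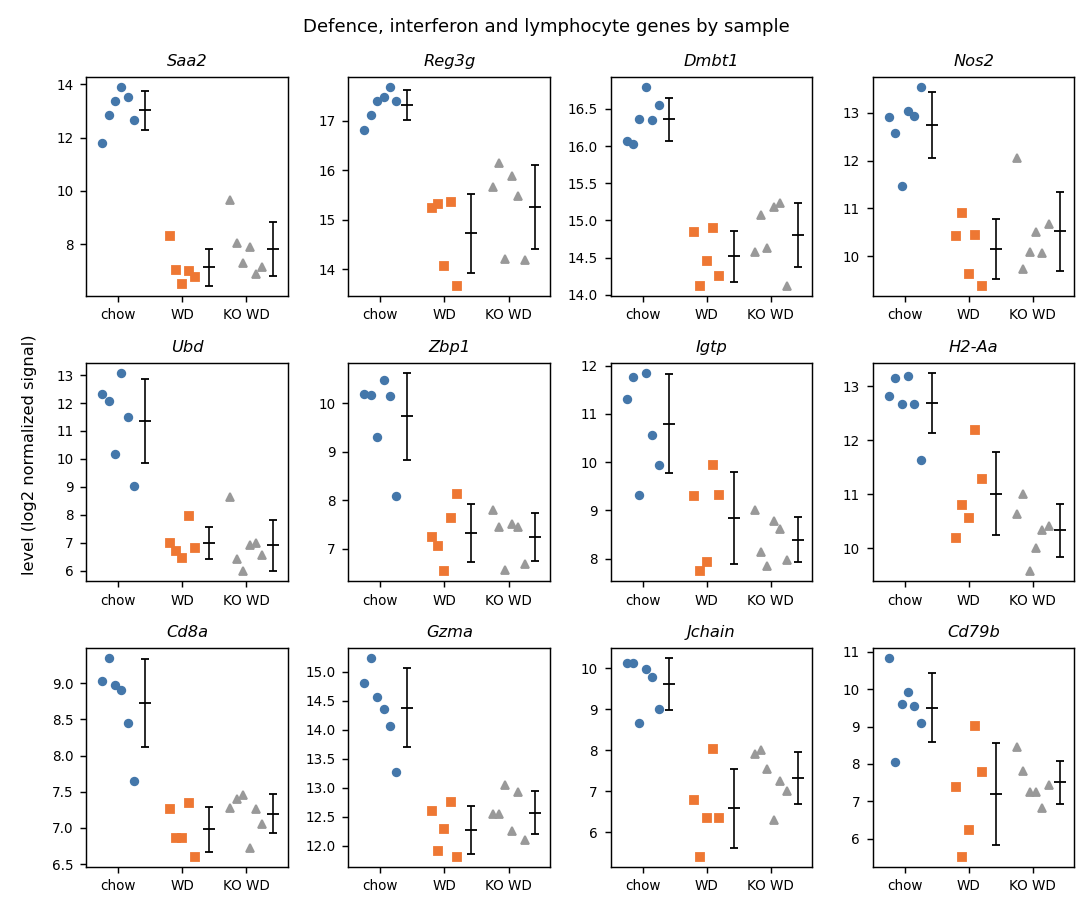
Levels (vertical axis, log2 normalized signal) of 12 defence, interferon, antigen presentation and lymphocyte genes by sample, with 6 chow samples (circles), 5 WD samples (squares) and 6 arrays labelled iPGC1a-/- on WD (triangles, KO WD), and the mean ± SD of each group. All 12 means are lower on WD than on chow, and the samples of chow and WD overlap for Zbp1, Igtp, H2-Aa and Cd79b.

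Part of the amino acid stress genes fell. The integrated stress response raises genes of amino acid synthesis through ATF4 when amino acids are short, and 7 of its 18 genes were lower and 0 higher. Asns levels were 11.01 to 13.05 (median 12.11) on chow and 10.89, 10.27, 10.43, 10.08 and 10.38 on WD. Chow replicate 2 was the lowest chow sample, just above WD replicate 1, the highest on WD. Asns, the asparagine synthetase, was 3-fold lower on WD (-1.59 ± 0.25, adjusted p = 0.000167) at 2 of 2 probes. Phgdh and Psat1, enzymes of serine synthesis, were 2.82-fold lower (-1.50 ± 0.25) and 2.39-fold lower (-1.26 ± 0.22). Atf5 was 2.22-fold lower (-1.15 ± 0.22). Chac1 levels were 7.29 to 10.99 (median 8.21) on chow and 6.25, 7.49, 5.96, 6.30 and 6.72 on WD. Chow replicates 3 and 6 were far above the other chow samples, and the average of WD replicates 2 and 3 lay within the chow range. Chac1, which degrades glutathione, was 4.66-fold lower on WD (-2.22 ± 0.54, adjusted p = 0.00671). Of 20 tRNA synthetases 4 were lower, among them Mars, 1.67-fold lower (-0.74 ± 0.14), and Wars, 1.62-fold lower (-0.69 ± 0.11). That count was 2 without chow replicate 6 and 1 with WD replicates 2, 3 and 6 left out.

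Genes of growth were called in part. DNA replication and mitosis had 7 of 42 genes lower, 1 higher and a median of -0.42. The count lower depended on single samples, with 12 without chow replicate 3, 14 without WD replicate 4, 2 without chow replicate 4, and 1 without WD replicates 2 and 3. Rrm2, a subunit of ribonucleotide reductase, was 1.71-fold lower (-0.77 ± 0.15). Ccna2, the cyclin of S phase, was 1.56-fold lower (-0.64 ± 0.14), and fell inside the 1.5-fold limit without chow replicate 4 (-0.53, adjusted p = 0.00687). In ribosome biogenesis all 54 differences were negative, with a median of -0.37. Only 2 of the 54 were called lower (3.7%), below the 4.89% of all genes. This count went from 0 without chow replicate 4 to 6 without WD replicate 1 or WD replicate 4. Tcof1, which supports rRNA transcription, was 1.56-fold lower (-0.65 ± 0.14), and inside the limit without chow replicate 4 (-0.57, adjusted p = 0.00932).

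Goblet cell markers were lower in part, and a few markers of other secretory cells differed in either direction. Goblet cell markers were lower in 6 of 11 cases, all 11 with a negative difference and a median of -0.60. The count was 2 without WD replicate 6, 3 without WD replicates 2 and 3, and 10 without WD replicate 1. Muc2, the main gel-forming mucin, had levels of 15.91 to 16.44 (median 16.18) on chow and 16.02, 15.09, 15.71, 15.77 and 14.74 on WD. WD replicate 6 was lowest and WD replicate 1 lay within the chow range. Muc2 was 1.65-fold lower on WD (-0.72 ± 0.19, adjusted p = 0.012), and inside the 1.5-fold limit without WD replicate 6 (-0.53, adjusted p = 0.0391). Zg16, a lectin of mucus, was 1.66-fold lower (-0.73 ± 0.21), and inside the limit without WD replicate 6 (-0.46, adjusted p = 0.0474). Agr2, which folds mucin, was 2.15-fold lower (-1.10 ± 0.22), and Spink4, a goblet cell peptide, 1.79-fold lower (-0.84 ± 0.14), the latter without overlap. Paneth cell markers had 0 calls of 10. Enteroendocrine markers had 2 of 25 higher and 2 lower, with a median of 0.17. The count higher was 7 without WD replicate 6, 4 without chow replicate 6, and 1 without chow replicate 1, 3, 4 or 5, without WD replicate 1, 4 or 5, or without WD replicates 2 and 3. Chga, the granule protein chromogranin A, was 1.8-fold lower (-0.85 ± 0.13), Pcsk1, a prohormone convertase, 1.78-fold lower (-0.83 ± 0.15), and Pax6, an endocrine transcription factor, 2.18-fold higher (1.12 ± 0.18). Tuft cell markers had 1 of 13 higher and 1 lower, with a median of 0.21, and 2 higher without WD replicate 4 or 5. Ltc4s, the leukotriene C4 synthase, was 2.7-fold higher (1.43 ± 0.11). Trpm5, a cation channel of chemosensory cells, was the marker that fell (-0.73), and it was not called without WD replicate 1 or WD replicate 5. Cldn2, a pore-forming claudin of crypts, was 1.98-fold lower (-0.98 ± 0.22), the only call among 17 tight junction genes.

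Several functions had 0 calls. These were the proteasome (31 genes), splicing factors (57), the unfolded protein response (20), autophagy (36), heat shock proteins (15), p53 targets (11) and the aryl hydrocarbon receptor pathway (5). Of that pathway Cyp1a1, Cyp1a2, Cyp1b1 and Ahrr, known targets of the receptor, did not pass the detection filter. Some of these lists leaned to 1 side. In the proteasome 30 of 31 differences were negative and 7 genes were lower without overlap, against 5.53% of all genes. In the unfolded protein response 17 of 20 were negative and 4 lower without overlap. Of splicing factors 48 of 57 were negative and 3 lower without overlap. Heat shock proteins had 13 of 15 negative and 0 lower without overlap. Autophagy had 26 of 36 positive, with 2 genes higher and 1 lower without overlap. The unfolded protein response gained 1 call with an array left out, lower without chow replicate 3 and higher without chow replicate 5. Paneth cell markers gained 1 lower without WD replicate 1 and 1 higher without WD replicate 5. The list around Ppargc1a gained 1 lower without chow replicate 5 or WD replicate 6. Smooth muscle markers gained 1 lower without WD replicate 1. Ribosomal proteins, with 51 names beginning in Rpl and 46 in Rps, had none either. Markers of endothelium, enteric glia and neurons, pancreatic acini, granulocytes and mast cells, erythroid cells and colonic epithelium had 0 calls among 4, 5, 3, 8, 1 and 3 genes tested. Of 5 fibroblast markers 1 was lower, Vim, which leukocytes express as well and which was 1.9-fold lower (-0.93 ± 0.20). Smooth muscle markers had 0 calls of 7, and WD replicate 1 held far more of some of them than any other sample. Myh11 levels were 5.31 to 5.77 (median 5.62) on chow and 9.73, 5.12, 5.02, 5.66 and 5.36 on WD. Tagln levels were 9.25 to 9.64 (median 9.46) on chow and 11.74, 9.60, 9.02, 9.63 and 8.91 on WD. Both genes, which encode contractile proteins, overlapped between the diets, at 0.58 ± 0.56 and 0.31 ± 0.34. Of the 290 solute carriers named Slc, 29 were higher (10%) and 26 lower (8.97%), against 3.01% and 4.89% of all genes. Of the 5767 tested names without a match in the annotation, 279 were called (4.84%), against 9.01% of the matched names.

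**Figure D5:**
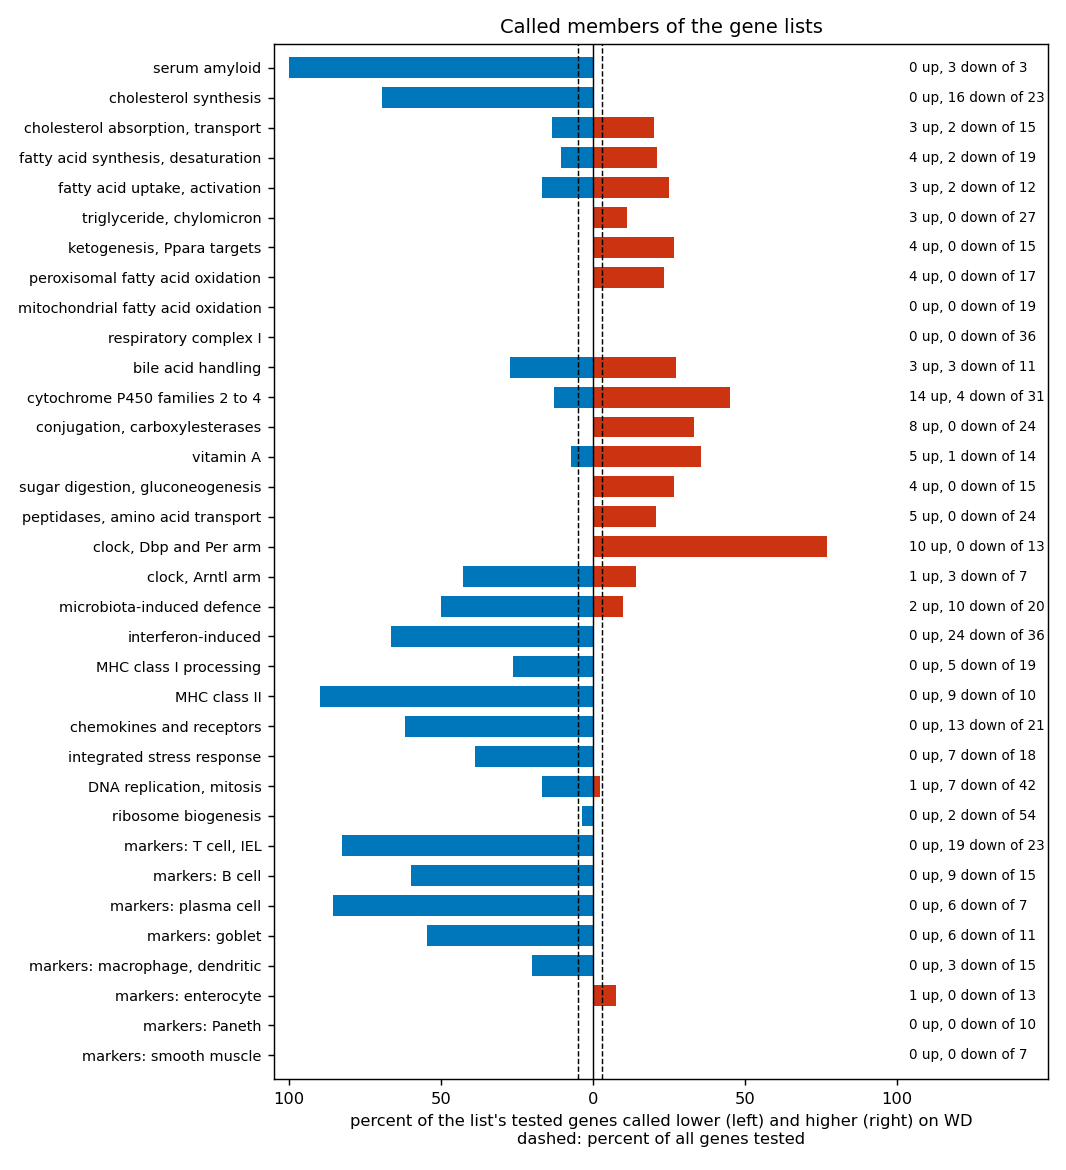
Percent of the tested genes of each list called lower (bars to the left) and higher (bars to the right) on WD, with the counts at the right edge and dashed lines at the percent of all genes called lower (4.89) and higher (3.01). Serum amyloid, MHC class II, plasma cell, T cell, cholesterol synthesis and interferon lists reach farthest to the left and the Dbp and Per arm of the clock farthest to the right.

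The WD arrays labelled iPGC1a-/- are set beside these values without a test, since any comparison of them with chow or WD would use the same floxed arrays. Their Sqle levels ran from 9.35 to 10.66, their Scd1 levels from 12.67 to 14.11 and their Dbp levels from 13.36 to 14.27. Saa2 ran from 6.88 to 9.67 and Reg3g from 14.19 to 16.14 there. For each of these 5 genes, those arrays lay on the same side of all chow samples as the floxed WD samples did.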

How the data were processed

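Total RNA of ileal cells was labelled with Cy3 and hybridised to 18 one-colour Agilent mouse arrays, on 3 slides holding 2 arrays of each group. The deposited intensity values are spot signals that Agilent Feature Extraction 10.10.1.1 wrote for each array, with probe positions on mm9 per the file headers. The authors' log2 values, from median signals that they filtered, corrected for washing bath and labelling batch and normalized by qsmooth, were used as an alternative. Those batches are not named in the labels used here and were not corrected.

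Here, log2 median signals without control and outlier spots were averaged per probe. A probe stayed in if any group had 5 or more of its 6 arrays well above background, which left 32726 probes. They were normalized by a qsmooth procedure (window 0.05) in R 4.3.3. WD replicates 2 and 3 were then averaged. A departure from the planned 6 WD samples, this followed from how closely they agree: the differences at 2 probes of a gene correlated at 0.0569 between them (Spearman, across 6013 genes, which are not independent) and at 0.184 to 0.744 in other pairs. One linear model over 3 groups (limma 3.58.1, with the data.table package, version 1.17.8) gave WD minus chow with moderated statistics and Benjamini-Hochberg adjustment. A gene took its brightest probe and was called at an adjusted p of 0.05 and a fold above 1.5. The number of arrays limits the precision. Scripts were tested on simulated data, and figures were drawn with matplotlib 3.10.9 in Python 3.11.15.

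Genes named were the 20 with the largest increase and decrease among called genes whose diets do not overlap and whose name matched the RefSeq annotation, up to 6 called members per direction of each list (up to 3 with the largest difference where fewer than 3 were called), up to 4 of a described name family, and Ppargc1a. Not all of these are printed, results of some single genes are not reported here, and called members of cholesterol synthesis outside the rule are named without values. The members and lists were chosen with earlier results of these data known. Of 37074 gene names on the array 24776 matched that annotation. Alternatives covered the signal used, the normalization, the filter, blocks, weights, thresholds, probe summaries and arrays left out.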

Additional observations from a re-analysis of the deposited data

Results flagged for a closer look

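Single samples far from the rest of their diet group were found in 27 of 348 groups of values examined, where chance gives about 1 in 20. Chow replicate 4 accounted for 14 of them, each time as the lowest chow sample. Its levels, with the nearest other chow level in brackets, were 7.52 for Abca1 (nearest 9.18), 14.1 for Abcg5 (nearest 14.7), 14.5 for Fabp1 (nearest 15.7), 15.1 for Apoa4 (nearest 16.1), 10.6 for Crat (nearest 11.4), 11.3 for Cyp2d10 (nearest 12.5) and 13.7 for Cyp2d26 (nearest 14.9). They were also 8.79 for Ugt2a3 (nearest 10.2), 10.8 for Slc7a8 (nearest 11.4), 13.4 for Lct (nearest 15.1), 12.5 for Slc2a5 (nearest 13.2), 7.29 for Slc23a1 (nearest 9.05), 12.5 for Alpi (nearest 13) and 10.2 for Arg2 (nearest 10.9). All 14 of these genes were called higher on WD, and the calls of Abcg5 and Slc2a5 were lost without that array.

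Other chow samples stood apart once each. Replicate 5 was low at 7.4 for Arntl (nearest 8.08), replicate 6 was low at 11.6 for H2-Aa (nearest 12.7), and replicate 3 was high at 8.83 for Saa3 (nearest 6.83). On WD, replicate 1 was high at 9.73 for Myh11 (nearest 5.66) and 11.7 for Tagln (nearest 9.63), and low at 12.3 for Acads (nearest 12.4) and 13.5 for Ces2b (nearest 13.8). WD replicate 5 was high at 17 for Fabp1 (nearest 16.7) and 5.93 for Mzb1 (nearest 5.11) and low at 7.37 for Fgf15 (nearest 9.27). The average of WD replicates 2 and 3 was low at 8.61 for Acacb (nearest 9.28), replicate 4 at 16.3 for Apoc2 (nearest 16.7), and replicate 6 at 8.09 for Cldn2 (nearest 8.93).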

How the results depend on the processing

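Across the alternatives with the fold limit kept, 1277 to 2328 genes were called, the extremes being normexp background correction and the scanner's processed signal scaled to the 75th percentile, against 1701. That processed signal gave 1024 genes higher and 1304 lower. Without the fold limit, 4139 genes passed, 1769 higher and 2370 lower, the cause being the construction of that setting. Leaving out single arrays gave 1529 to 1820 calls, with 576 to 732 higher and 953 to 1162 lower. The median difference over all genes stayed within 0.0609 of 0. Counting all 18 arrays as separate samples gave 1815 calls, without WD replicates 2 and 3 it was 1567, and without WD replicates 2, 3 and 6, those with the fewest spots above background, 1524 (681 higher, 843 lower). These settings were chosen after seeing the data.

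With the replicate block, 1828 genes were called (701 higher, 1127 lower), and with the slide block 1812. Both were run with all 18 arrays as separate samples, since neither block could be fitted with the averaged pair. Deviations of same-numbered arrays of the diets correlated at 0.198, 0.220, 0.165, 0.284, 0.0705 and -0.131, and 4 of 6 chow arrays correlated best with their own number, a hint of pairing in part of the arrays. As the labels give no shared source and the last 2 correlations were lower, the numbers were not taken as pairs.

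Of 171 named genes 166 were called, and none of the called genes reversed in sign. The call was kept by 143 with each array left out and under every alternative in which they were tested. Some dim genes, among them Mfi2 and Saa3, were tested in only 18 of the 19 alternatives. Myh11 and Tagln, which were not called, turned to -0.31 and -0.20 without WD replicate 1. Besides the losses given with the genes, Fasn, Slc10a2, Cyp3a11, Cyp3a16, Cyp3a41a, Ccna2, Wars and Tcof1 were not called on the processed signal, Nr0b2, Cyp3a11 and Bco1 not under normexp, and Acacb, Plin2 and Crat not with probes averaged. Without WD replicates 2, 3 and 6, Fasn, Acacb, Ciita, Ms4a1, Vim, Ccna2, Mars, Muc2, Zg16 and the 3 Cyp3a genes other than Cyp3a44 were not called. At an adjusted p of 0.01, 5 of 24 conjugating enzymes and carboxylesterases and 4 of 10 MHC class II genes were called, and with the strict filter 7 of 21 chemokines and receptors. The difference in the share of spots above background ranged from -2.48 to -1.29 points with single arrays left out, that in median background from -0.333 to 0.667 against 0.167, and that in median signal from -5.15 to -1.90 against -4.03. Genes near background limit these results: of the called genes 43 were not well above it on any WD array and 7 on any chow array. The causes of these changes were not tested.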
